A study of Mus musculus with 12 samples.

Results

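The genes described here are 33 genes of glycolysis, glucose uptake, lactate export and the steps that feed or divert them, read in cultured mouse chondrocytes at 1 and 3 weeks. They comprise 2 glucose carriers, 2 hexokinases, 15 enzymes from Gpi1 to Pkm, 3 enzymes of the fructose bisphosphate regulator, 2 lactate dehydrogenases, 2 monocarboxylate carriers, 4 pyruvate dehydrogenase kinases and 3 glycogen enzymes. Each gene was represented by its RefSeq transcript with the most reads, and all 33 were found among the 23575 genes of the count tables. The chondrocytes came from articular cartilage of the femoral head and tibial plateaus of C57BL/6J mice aged 5 to 6 days, were expanded as monolayers in serum-containing medium, and were then kept as 3D pellets with ascorbic acid and ITS (insulin, transferrin and selenium), a culture used to drive hypertrophy. Pellets were harvested at day 7 (Week 1) or day 21 (Week 3), with 3 RNA-seq and 3 bisulfite libraries per week. No genetic change and no other agent separated the groups, which the labels divide by culture time, and every pellet shared the monolayer passage and the supplements. Whatever else differed between the weeks cannot be told apart from culture time.

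Glycolysis splits glucose into pyruvate in the cytosol and yields ATP without oxygen. Lactate dehydrogenase then turns pyruvate into lactate, which regenerates NAD+ and leaves the cell through monocarboxylate carriers, while pyruvate dehydrogenase kinases hold pyruvate back from the mitochondria. Cartilage has no blood vessels, and its chondrocytes are known for relying on glycolysis and for strong expression of HIF-1 target genes, many of which encode the enzymes listed here.

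Gene totals of the RNA libraries ran from 14361717 to 19774665 reads. Replicate 2 stood apart from replicates 1 and 3 of its own week in the read counts, and its summed adipocyte markers were the highest of each week (146 against 31.6 to 48.2 CPM, reads scaled to a common library size with TMM factors, at Week 1, and 80.4 against 14.7 to 25.3 CPM at Week 3). In Week 1 the same replicate held 13185 CPM of 8 cartilage markers against 24615 to 26234 CPM in the other libraries. Col2a1 and Acan, which define chondrocytes, were high in all 6 RNA libraries, and all 6 markers of hypertrophic chondrocytes were higher at Week 3, with a summed level of 4227 to 5670 CPM at Week 1 and 21198.5 to 26945 CPM at Week 3. That marker level moved with every difference below, and its part in them was not tested.

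The promoters of 4 of the genes whose reads changed are shown as examples, all 4 with marked matches. The reduced representation bisulfite libraries measured sites around the start of each. Such bisulfite sites were also measured for other called genes that are not shown, Gpi1, Eno2 and Tpi1 among them. The sequences are the 250 bases before the annotated start, taken from RefSeq GRCm38.p6, 5′ to 3′ on the strand of the gene, with capitals marking ACGTG or GCGTG, the core of the hypoxia response element, or the reverse complement CACGT or CACGC. Where CACGTG occurs, the overlapping matches on both strands were counted separately.
Slc2a1 promoter, chr4:119108495-119108744, plus strand: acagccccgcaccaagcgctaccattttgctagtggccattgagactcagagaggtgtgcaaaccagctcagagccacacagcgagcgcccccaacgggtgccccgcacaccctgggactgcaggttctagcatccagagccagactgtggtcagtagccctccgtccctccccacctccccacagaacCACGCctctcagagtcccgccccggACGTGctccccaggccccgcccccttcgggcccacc
Hk2 promoter, chr6:82774455-82774704, minus strand: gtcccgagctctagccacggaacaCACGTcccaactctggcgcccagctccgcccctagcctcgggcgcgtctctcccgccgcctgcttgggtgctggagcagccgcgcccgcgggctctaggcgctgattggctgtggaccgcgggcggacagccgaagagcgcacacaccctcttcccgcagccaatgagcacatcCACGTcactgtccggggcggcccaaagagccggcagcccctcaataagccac
Slc16a1 promoter, chr3:104638414-104638663, plus strand: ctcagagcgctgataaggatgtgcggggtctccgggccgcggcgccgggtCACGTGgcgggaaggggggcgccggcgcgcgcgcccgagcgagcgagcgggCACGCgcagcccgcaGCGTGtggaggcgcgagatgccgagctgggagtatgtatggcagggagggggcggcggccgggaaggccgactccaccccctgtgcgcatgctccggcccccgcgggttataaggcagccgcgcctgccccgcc
Pygl promoter, chr12:70227684-70227933, minus strand: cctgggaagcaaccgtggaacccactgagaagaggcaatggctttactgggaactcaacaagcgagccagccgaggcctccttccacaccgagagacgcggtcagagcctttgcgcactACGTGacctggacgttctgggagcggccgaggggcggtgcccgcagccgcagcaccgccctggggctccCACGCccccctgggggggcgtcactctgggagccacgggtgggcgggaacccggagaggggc
Slc2a1, Hk2 and Pygl each held 2 matches and Slc16a1 held 4, the highest number among these genes, which Pfkfb2 and Pdk3 also had. A match was present in 26 of the 32 promoters found in the sequence table (81.3%), against 38.6% of all 32851 promoter windows of the same length and 67.3% of the windows that held at least 14 CpGs, the median of these promoters. Among the genes called higher every promoter but that of Tpi1 held a match, and among those called lower every promoter but those of Gpi1 and Eno2. A match describes the letters only. Slc2a3 was the gene with no entry in the table.

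Between Week 1 and Week 3 the genes changed in both directions. In edgeR's quasi-likelihood test with Benjamini-Hochberg adjustment over 14323 genes, 37.4% of all genes passed at an adjusted p of 0.05, 19.7% of all genes being higher and 17.8% lower at Week 3. Of the 33 genes 16 passed (48.5%), all 33 having been tested. The 7 higher genes were Pygm, Aldoc, Pygl, Pdk2, Pfkfb4, Pfkp and Tpi1, and the 9 lower genes were Slc2a1, Hk2, Eno1, Slc16a1, Eno2, Gpi1, Pfkfb3, Pgk1 and Pgam1. The changes were small, with log2 changes from -0.57 to 0.96 and a median of -0.06, and the median size was 0.19 against 0.23 over all genes tested. The ranges of the 2 weeks did not overlap for 22 of the 33 genes, a state that 51.4% of all genes shared. Leaving out Week 1 replicate 3 lowered the total to 10 genes, and the higher genes numbered 4 without Week 1 replicate 1, Week 1 replicate 3, Week 3 replicate 1 or Week 3 replicate 3. With replicates 1 and 3 alone, 9 genes were higher and 9 lower, beside 3148 higher and 2899 lower over all genes.

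The split between the directions depended on the scaling. With library totals in place of TMM the median log2 change of all genes moved from -0.01 to -0.16, and 3 of the 33 genes were higher and 14 lower, beside 1736 higher and 4896 lower over all genes. The calls of Pygm, Aldoc and Pygl among the higher genes, and of Slc2a1, Hk2, Eno1, Slc16a1, Eno2 and Gpi1 among the lower, held under every alternative run, including library totals, DESeq2, the replicate block and each library left out. In bulk RNA, fewer cells of a type and less RNA per cell cannot be told apart. The labels do not say that the replicates came from separate cultures or animals, so p-values measure only the spread between these samples, which may be technical.

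**Figure D1:**
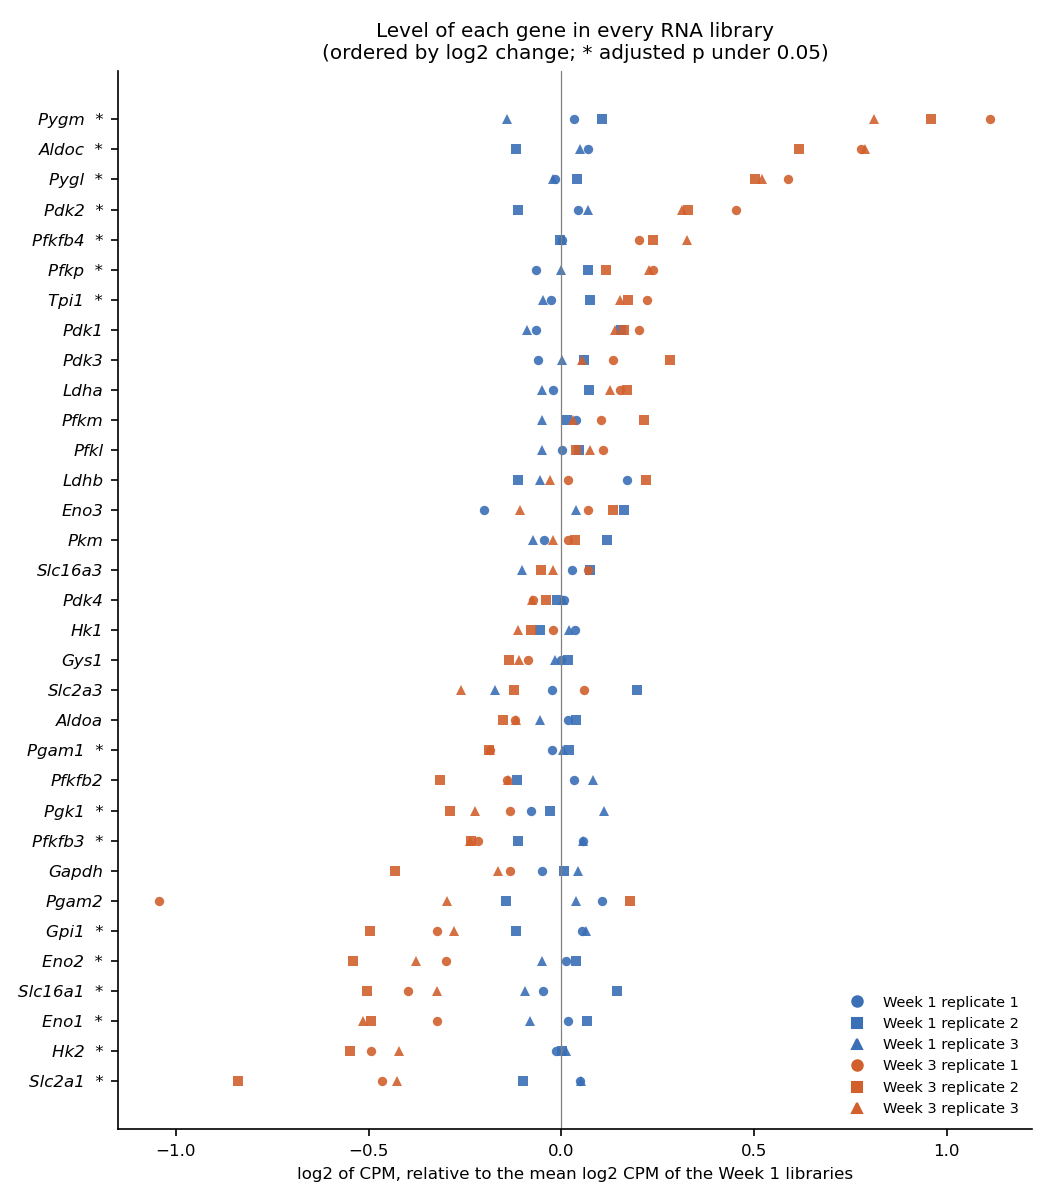
Log2 CPM of each of the 33 genes in the 6 RNA libraries (x axis), relative to the mean log2 CPM of the Week 1 libraries, with genes on the y axis ordered by log2 change, blue for Week 1, orange for Week 3 and symbols for the replicates. The asterisk marks an adjusted p under 0.05, and the 3 genes at the top (Pygm, Aldoc, Pygl) and the 6 at the bottom (Slc2a1, Hk2, Eno1, Slc16a1, Eno2, Gpi1) have orange points clear of the blue ones.

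The largest fall among the 33 genes was in a glucose carrier. Slc2a1 (chr4:119108745-119137330) encodes GLUT1, the main carrier of basal glucose uptake. Its level was 1074, 969.7 and 1076 CPM at Week 1 and 753, 581 and 773 CPM at Week 3. All Week 3 libraries lay below all Week 1 libraries, with Week 3 replicate 2 the lowest. Its log2 change was -0.57 (SE 0.10, 1.48-fold lower, adjusted p = 0.00293 by edgeR). A gene on the opposite strand, Gm12867, overlaps its exons, and no strand setting was stated. Slc2a3, the high-affinity carrier GLUT3, ran from 54.1 to 69.8 CPM at Week 1 and from 50.9 to 63.5 CPM at Week 3, and the log2 change of -0.11 did not pass (adjusted p = 0.446 by edgeR).

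Of Hk1 and Hk2, hexokinases that trap glucose in the cell by phosphorylation, only Hk2 passed, and the test of a difference between the 2 genes was not made. Hk2 (chr6:82725025-82774454), the inducible form, measured 386, 389.9 and 393 CPM at Week 1 and 277, 266 and 291 CPM at Week 3. The 3 Week 1 libraries lay within a narrow band, and the Week 3 libraries were all lower. The log2 change was -0.49 (SE 0.05, 1.40-fold lower, adjusted p = 0.000112 by edgeR), and the call held in every alternative. Hk1 (chr10:62268855-62379908), the constitutive form, measured 229.8, 216 and 227 CPM at Week 1 and 221, 212 and 207 CPM at Week 3. These ranges overlapped, and the log2 change of -0.07 (SE 0.05) did not pass (adjusted p = 0.323 by edgeR), although it passed with library totals (-0.22, adjusted p = 0.00602). Hk1os lies on the other strand across Hk1 exons.

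In the upper part of glycolysis, where glucose phosphate is converted and split, Gpi1 fell and Aldoc and Pfkp rose. Gpi1 (chr7:34201327-34230336), glucose phosphate isomerase, measured 1188, 1055 and 1197 CPM at Week 1 and 915, 812 and 944 CPM at Week 3. Replicate 2 was the lowest of each week, and the ranges did not overlap. The log2 change was -0.37 (SE 0.08, 1.29-fold lower, adjusted p = 0.00474 by edgeR). Aldoc (chr11:78323073-78327781), the aldolase of brain and some other tissues, measured 92.1, 80.9 and 90.7 CPM at Week 1 and 150.5, 135 and 152 CPM at Week 3. Every Week 3 library was above every Week 1 library. For Aldoc the log2 change was 0.73 (SE 0.07, 1.66-fold higher, adjusted p = 5.08e-05 by edgeR). Aldoa, the main aldolase, ran from 1558 to 1661 CPM at Week 1 and from 1457 to 1492 CPM at Week 3, without overlap. Its log2 change of -0.13 did not pass (adjusted p = 0.116 by edgeR), although with library totals it did (-0.28, adjusted p = 0.00512).

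Neural marker levels moved beside Aldoc. Of 6 markers of neural and Schwann cells 3 could be tested and all 3 were higher at Week 3, their sum being 23.9 to 34.0 CPM at Week 1 and 50.7 to 59.7 CPM at Week 3. Mbp, which encodes myelin basic protein, made up most of that sum. The part of these cells in the Aldoc result was not tested. Eno2, the enolase of neurons, fell in the same libraries, as given below.

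Phosphofructokinase commits sugar to glycolysis. Pfkp (chr13:6579874-6648771), its platelet form, measured 413, 453 and 432 CPM at Week 1 and 510.1, 469 and 506 CPM at Week 3. The weeks did not overlap, with Week 3 replicate 2 nearest to Week 1. The log2 change was 0.19 (SE 0.06, 1.14-fold higher, adjusted p = 0.029 by edgeR). Dropping a single library ended the call for replicate 1 of Week 1 (adjusted p = 0.119), replicate 3 of Week 1 (0.0748), replicate 1 of Week 3 (0.110) and replicate 3 of Week 3 (0.0945), as did library totals (0.634). Pfkl, the liver form, and Pfkm, the muscle form, had log2 changes of 0.07 and 0.12, with overlapping ranges, and neither passed. Exons of Pfkp overlap Pitrm1, and those of Pfkm overlap Senp1, on the other strand.

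Of the 3 bifunctional enzymes among these genes that make or remove the activator of phosphofructokinase, Pfkfb4 rose and Pfkfb3 fell. Pfkfb4 (chr9:108991902-109032225) measured 20.1, 20.02 and 20.1 CPM at Week 1 and 23.1, 23.7 and 25.2 CPM at Week 3, without overlap. Its log2 change was 0.26 (SE 0.08, 1.19-fold higher, adjusted p = 0.0236 by edgeR). It did not pass by DESeq2 (adjusted p = 0.0750), with library totals (0.314), or once replicate 1 (0.0606) or 3 (0.0599) of Week 1 or replicate 3 of Week 3 (0.0880) was dropped. Pfkfb3, the isoform with the strongest kinase activity and the most abundant of the 3, had a log2 change of -0.23 (adjusted p = 0.0125 by edgeR), and dropping replicate 1 or replicate 3 of Week 1 raised that p to 0.0616 and 0.0571. Pfkfb2 ranged from 71.8 to 82.2 CPM at Week 1 and from 62.5 to 70.6 CPM at Week 3 and had a log2 change of -0.20 that did not pass (adjusted p = 0.0562). The replicate block brought that p to 0.0131, dropping replicate 2 of Week 1 to 0.0118, and replicates 1 and 3 alone to 0.00710.

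In the lower part of glycolysis, where ATP is gained, Eno1 and Eno2 fell. Eno1 (chr4:150236708-150248879), the ubiquitous enolase, measured 255, 264 and 238 CPM at Week 1 and 201, 179 and 176 CPM at Week 3. The weeks did not overlap. Eno1 had a log2 change of -0.44 (SE 0.07, 1.36-fold lower, adjusted p = 0.000752 by edgeR). Eno2 (chr6:124760053-124769673), the neuronal enolase, measured 58.2, 59.3 and 55.7 CPM at Week 1 and 46.8, 39.7 and 44.4 CPM at Week 3, again without overlap. Its log2 change was -0.40 (SE 0.07, 1.32-fold lower, adjusted p = 0.00212 by edgeR). Eno3, the muscle enolase, had means of 4.96 and 5.05 CPM (log2 change 0.03) and did not pass.

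Tpi1, of the upper part, and Pkm and Pgam2, of the lower part, had smaller log2 changes or wide spreads. Tpi1, which interconverts the triose phosphates, ran from 623 to 678 CPM at Week 1 and from 716 to 752 CPM at Week 3 (log2 change 0.18, adjusted p = 0.0319 by edgeR). That call ended with library totals (0.734), on dropping replicate 1 (0.113) or 3 (0.106) of Week 1, and on dropping replicate 1, 2 or 3 of Week 3 (0.121, 0.0503 and 0.0632). Tpi1 also shares exon bases with Spsb2 on the other strand. Pkm, whose product makes pyruvate, ran from 1046 to 1194 CPM over all 6 libraries (log2 change 0.01, adjusted p = 0.934). Pgam2, the muscle mutase, was counted at 20 to 57 reads per library, and its log2 change of -0.28 did not pass (adjusted p = 0.452).

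For Gapdh, Pgk1, Pgam1 and Eno1 the counts cover a small part of what can be told apart. These genes have many processed pseudogenes, and 85.5%, 92.5%, 91.7% and 82.3% of the 50-base windows of their transcripts matched another place in the genome exactly. Gapdh had only 320 to 400 reads per library, and how reads with several matches were handled is not given in the sources used here. Pgk1, phosphoglycerate kinase, fell (log2 change -0.22, adjusted p = 0.0372 by edgeR). This did not pass by DESeq2 (0.0733) or once replicate 3 of Week 1 (0.151), replicate 2 of Week 3 (0.112) or replicate 3 of Week 3 (0.0985) was dropped. Pgam1, phosphoglycerate mutase, fell (log2 change -0.19, adjusted p = 0.0442). Its call was not kept by DESeq2 (0.156), without the filter on low counts (0.0691), with replicates 1 and 3 alone (0.0678) and without any of the 6 libraries (0.0680 to 0.112). Gapdh, the dehydrogenase that gives NADH, had a log2 change of -0.24 that did not pass (0.0716), whereas the replicate block gave 0.0478. The other 29 genes held 7 higher and 6 lower calls.

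**Figure D2:**
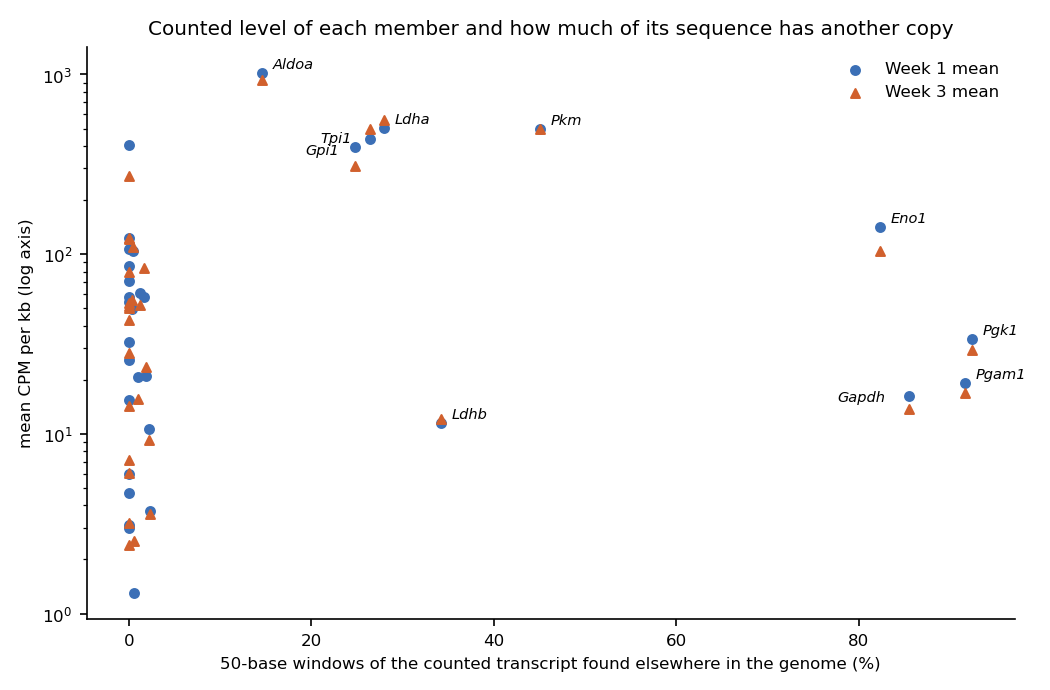
Mean CPM per kb of transcript (y axis, log scale) at Week 1 (circles) and Week 3 (triangles) against the share of the transcript's 50-base windows that also occur elsewhere in the genome (x axis, %), 1 pair of symbols per gene. Gapdh, Pgk1, Pgam1 and Eno1 lie beyond 80% on the x axis, and Gapdh, at 16.3 CPM per kb at Week 1, is far below Aldoa at 1019.

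At the end of the pathway, Ldha made up nearly all of the summed CPM per kb of Ldha and Ldhb at both times. Ldha (chr7:46845804-46855627), which favours lactate formation, measured 896, 957 and 880.2 CPM at Week 1 and 1012, 1025 and 994 CPM at Week 3. The ranges did not overlap, yet the log2 change of 0.15 (SE 0.06, 1.11-fold higher) did not pass (adjusted p = 0.0711 by edgeR). Dropping replicate 2 of Week 1 brought it past the threshold (0.18, adjusted p = 0.0183), as did replicates 1 and 3 alone (0.18, 0.00738), and with library totals the log2 change was -0.0031. Ldhb (chr6:142490249-142507957), the heart form, measured 16.8, 13.8 and 14.4 CPM at Week 1 and 15.1, 17.4 and 14.6 CPM at Week 3. These values overlapped, and the log2 change of 0.07 (SE 0.11) did not pass (adjusted p = 0.653 by edgeR).

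The lactate carriers differed in their calls. Slc16a1 (chr3:104638664-104658462), MCT1, which moves lactate either way, measured 246, 281 and 238 CPM at Week 1 and 193, 179 and 203 CPM at Week 3. Week 1 replicate 2 was the highest and Week 3 replicate 2 the lowest, with no overlap. The log2 change was -0.41 (SE 0.07, 1.33-fold lower, adjusted p = 0.00206 by edgeR). Slc16a3 (chr11:120948484-120959000), MCT4, the exporter of strongly glycolytic cells, measured 309, 319 and 282 CPM at Week 1 and 318, 292 and 299 CPM at Week 3. The Week 3 values lay inside the Week 1 range, and the difference did not pass (log2 change -0.0025, SE 0.06, adjusted p = 0.979 by edgeR). Both carriers need a partner protein to reach the membrane, and Bsg and Emb, which encode those partners, were lower at Week 3 (log2 change -0.26 and -0.48, adjusted p = 0.0186 and 0.00066). Bsg was chosen for mention after its values were seen.

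Of the 4 kinases that switch off pyruvate dehydrogenase only Pdk2 passed, and differences between the kinases were not tested. Pdk2 (chr11:95026258-95041371) measured 10.9, 9.81 and 11.1 CPM at Week 1 and 14.5, 13.3 and 13.2 CPM at Week 3, without overlap. The log2 change was 0.36 (SE 0.10, 1.29-fold higher, adjusted p = 0.0175 by edgeR), and it did not pass after replicate 1 of Week 3 was dropped (0.0686) or with library totals (0.111). Pdk1 (chr2:71873224-71903858), the hypoxia-inducible and most abundant kinase, measured 246, 286 and 242 CPM at Week 1 and 296, 288 and 283 CPM at Week 3. Week 1 replicate 2 lay within the Week 3 range while the other Week 1 libraries were lower. The log2 change of 0.16 (SE 0.07) did not pass (adjusted p = 0.0892 by edgeR), but with the replicate block (0.17, 0.0462) and after replicate 2 of Week 1 was dropped (0.24, 0.00343) it did, as with replicates 1 and 3 alone (0.25, 0.000221).

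Pdk4 (chr6:5483351-5496278), the kinase induced by fasting, measured 12.9, 12.8 and 12.9 CPM at Week 1 and 12.2, 12.5 and 12.2 CPM at Week 3. The ranges did not overlap, but the log2 change was only -0.06 (SE 0.09, adjusted p = 0.615 by edgeR). Pdk3 had a log2 change of 0.16 with overlapping ranges and did not pass (adjusted p = 0.123).

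Of the glycogen phosphorylases, which release glucose phosphate from glycogen, Pygl and Pygm rose. Pygb, the brain form and not 1 of the 33 genes, had means of 70.5 and 75.9 CPM and did not pass (log2 change 0.11, adjusted p = 0.146 by edgeR), and it was chosen for mention after its values were seen. Pygl (chr12:70190815-70227683), the liver form of glycogen phosphorylase, measured 161, 167 and 160.2 CPM at Week 1 and 244, 231 and 234 CPM at Week 3. The groups were far apart relative to their spread. Pygl had a log2 change of 0.54 (SE 0.05, 1.45-fold higher, adjusted p = 4.99e-05 by edgeR). Pygm (chr19:6384408-6398464), the muscle form, was low, at 3.81, 4.00 and 3.37 CPM at Week 1 and 8.05, 7.22 and 6.53 CPM at Week 3, from 50 to 135 reads per library. All Week 3 libraries were higher, and the log2 change was 0.96 (SE 0.15, 1.94-fold higher, adjusted p = 0.000771 by edgeR). Gys1, the glycogen synthase, ran from 314 to 321 CPM at Week 1 and from 289 to 299 CPM at Week 3, and its log2 change of -0.11 did not pass (adjusted p = 0.104), although it passed with library totals (0.00277).

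Since Pygm is the muscle form, the muscle markers are given beside it. Of 8 markers of skeletal muscle 3 could be tested. Ttn fell from a mean of 60.2 to 20.3 CPM, while Tnnt3 (5.43 and 6.24 CPM, log2 change 0.20) and Mylpf (1.04 and 1.21 CPM, log2 change 0.23) did not pass. The sum of the 8 was 57.4 to 75.9 CPM at Week 1 and 26.8 to 29.2 CPM at Week 3 and was mostly Ttn, Myod1 was at 0 in every library, and Ckm had 0 or 1 read in each. The part of muscle cells in the Pygm result was not tested.

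Per kb of transcript, the order of levels at Week 1 ran from Aldoa (1019 ± 34.1 CPM per kb, SD, n = 3) through Ldha (502 ± 22.3), Pkm (496 ± 36.2), Tpi1 (439 ± 19.96), Slc2a1 (404 ± 23.7) and Gpi1 (397 ± 27.5) to Pygm (1.30 ± 0.112). Neighbours from Ldha to Pkm, from Tpi1 to Slc2a1 and from Slc2a1 to Gpi1 lay within their summed spread. Lengths were those of full transcripts, with no correction for windows that also occur elsewhere in the genome. Such windows made up 14.6% of Aldoa, 28.0% of Ldha, 45.1% of Pkm, 26.5% of Tpi1 and 24.8% of Gpi1. They made up 0% of Slc2a1 and most of Gapdh, Pgk1, Pgam1 and Eno1. How reads there were counted is not given, so the order between genes may partly reflect these windows. At Week 3 Aldoa stayed at the top with 932 CPM per kb, and Ldha, Pkm and Tpi1 (556, 499.3 and 498 CPM per kb) were above Gpi1 and Slc2a1 (308 and 273). Summed over the 33 genes, the level was 10199.6 to 10492 CPM at Week 1 and 9410.5 to 9927 CPM at Week 3, without overlap. Abundant genes weigh most in this sum. Slc2a1 (means of 1040 and 702 CPM) and Gpi1 (1147 and 890 CPM) were lower at Week 3. Ldha (911 and 1010 CPM) and Tpi1 (644 and 731 CPM) had higher means. The sum does not describe all 33 genes alike, since 7 were called higher and 9 lower.

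Within pairs of related genes the share of each form can be compared inside a library, where scaling has no bearing. Hk2 made up 55.9%, 57.7% and 56.6% of the CPM per kb of Hk1 and Hk2 at Week 1 and 48.6%, 48.6% and 51.4% at Week 3. Slc16a1 made up 32.0% ± 1.08 (SD, n = 3) of the pair with Slc16a3 at Week 1 and 26.2% ± 1.23 (SD, n = 3) at Week 3. Both shares were lower in every Week 3 library than in any Week 1 library. Aldoc was 3.07% ± 0.275 of the sum of Aldoa and Aldoc at Week 1 and 5.42% ± 0.271 at Week 3 (SD, n = 3 each). Pygm was 2.20% ± 0.149 of the sum of Pygl and Pygm, with Pygb left out, at Week 1 and 2.93% ± 0.235 at Week 3, both without overlap. Pfkl made up 43.8% of the phosphofructokinases at Week 1 and 42.0% at Week 3, Pfkfb3 78.6% and 76.0% of the sum with Pfkfb2 and Pfkfb4, and Pdk2 5.96% and 6.80% of the kinases, each without overlap. Ldhb was 2.25% and 2.12% of the sum of Ldha and Ldhb, and the shares of Slc2a1, Pfkp, Pfkm, Ldhb and Pdk1 overlapped between the weeks. No test was made of these shares, since they rest on the same reads as the calls above. Windows that also occur elsewhere in the genome made up 14.6% of Aldoa and 0% of Aldoc. For Ldha and Ldhb they made up 28.0% and 34.2%, so the sizes of these shares are uncertain.

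**Figure D3:**
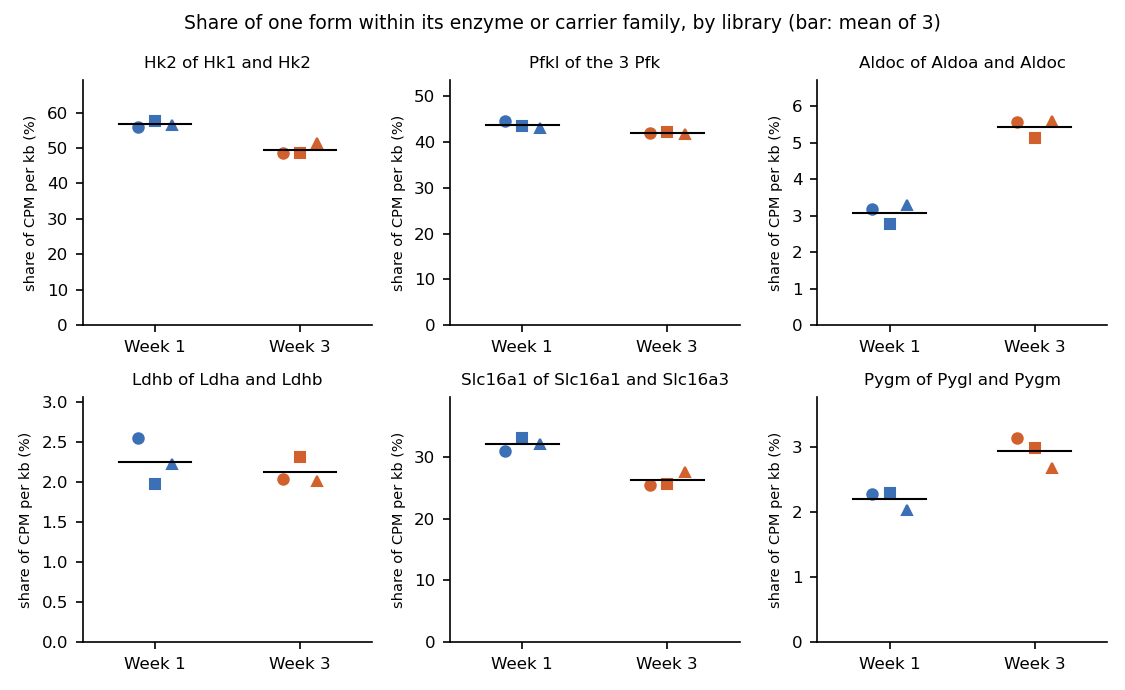
Share of a named form in the summed CPM per kb of the forms compared (y axis, %, from 0) in each RNA library at Week 1 and Week 3 (x axis), with circles, squares and triangles for replicates 1, 2 and 3 and a bar at the mean of 3. Hk2, Slc16a1 and Pfkl have lower shares and Aldoc and Pygm higher shares at Week 3 in every library, while the points of Ldhb overlap.

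Genes around the pathway changed in both directions too. Of 13 tested genes among other glucose carriers and hexose-phosphorylating enzymes 3 were higher and 4 lower at Week 3. That is 53.8% called, against 37.4% of all genes tested (19.7% higher and 17.8% lower). Slc2a13, a carrier of myo-inositol, went from 26.4 to 48.4 CPM in the mean (log2 change 0.87, adjusted p = 1.05e-05 by edgeR), and Slc2a12 rose by a log2 change of 0.89. Hk3 was lower (log2 change -1.95), at 2.90 to 5.05 CPM in Week 1 and 0.671 to 1.64 CPM in Week 3. Hk3 is a hexokinase of white blood cells, and the summed macrophage and leukocyte markers (of 5 tested, 2 were lower and none higher) were 27.3 to 71.6 CPM at Week 1 and 11.7 to 47.9 CPM at Week 3. Their part in the Hk3 value was not tested. Of 9 further tested genes of glycolysis and lactate handling 44.4% were called, against 37.4% of all genes tested. Bpgm, which makes bisphosphoglycerate, and Slc16a7, MCT2, were higher (log2 change 0.55 and 1.16) and Bsg and Emb lower. Slc16a7 was low, with 15 to 24 reads per library at Week 1 and 33 to 57 at Week 3.

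Of 11 genes for pyruvate entry into mitochondria none was higher and 2 were lower, Pdhb, a subunit of pyruvate dehydrogenase, and Pdpr, which regulates its phosphatase (log2 change -0.38 and -0.29). Of 8 genes of the pentose phosphate pathway, which branches off after hexokinase, none was higher and 3 were lower, G6pdx, Rpe and Pgls (log2 change -0.52, -0.32 and -0.30). Of 6 tested genes of gluconeogenesis and glycerol phosphate handling, 2 were lower, G6pc3 and Gpd2 (log2 change -0.48 and -0.21). Of 17 tested genes of glycogen handling beyond the 3 above, 3 were higher and 2 lower. Gyg, the glycogen primer protein, and Pgm2 were lower (log2 change -0.43 and -0.57). Ppp1r3c, which targets a phosphatase to glycogen, rose by a log2 change of 0.25. Called genes made up 18.2% for pyruvate entry, 37.5% for pentose phosphate, 33.3% for gluconeogenesis and glycerol phosphate, and 29.4% for glycogen. Over all genes tested the share was 37.4%.

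Among 15 regulators of glycolytic genes 4 were higher and 4 lower (53.3% called, against 37.4% of all genes tested). Epas1, the HIF-2α subunit, went from 12.98 ± 1.51 to 25.97 ± 0.582 CPM (SD, n = 3 each, log2 change 1.00, adjusted p = 5.08e-05 by edgeR). Egln1, a prolyl hydroxylase that marks HIF for destruction, rose by a log2 change of 0.40, and Mlxipl, a glucose-responsive transcription factor, fell by 1.67. Mlxipl was low, with 39 to 44 reads per library at Week 1 and 11 to 16 at Week 3. Hif1a, the HIF-1α subunit, was chosen for mention after its values were seen and rose by a log2 change of 0.28 (adjusted p = 0.00474). Of 15 hypoxia targets outside glycolysis 3 were higher and 7 lower (66.7% called, against 37.4% of all genes tested). Car12, a carbonic anhydrase, rose by a log2 change of 1.501 and Ero1a, an oxidase of protein folding, fell by 0.80, from a mean of 3509 to 2009.8 CPM. Kdm3a, a histone demethylase, fell by 0.57.

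**Figure D4:**
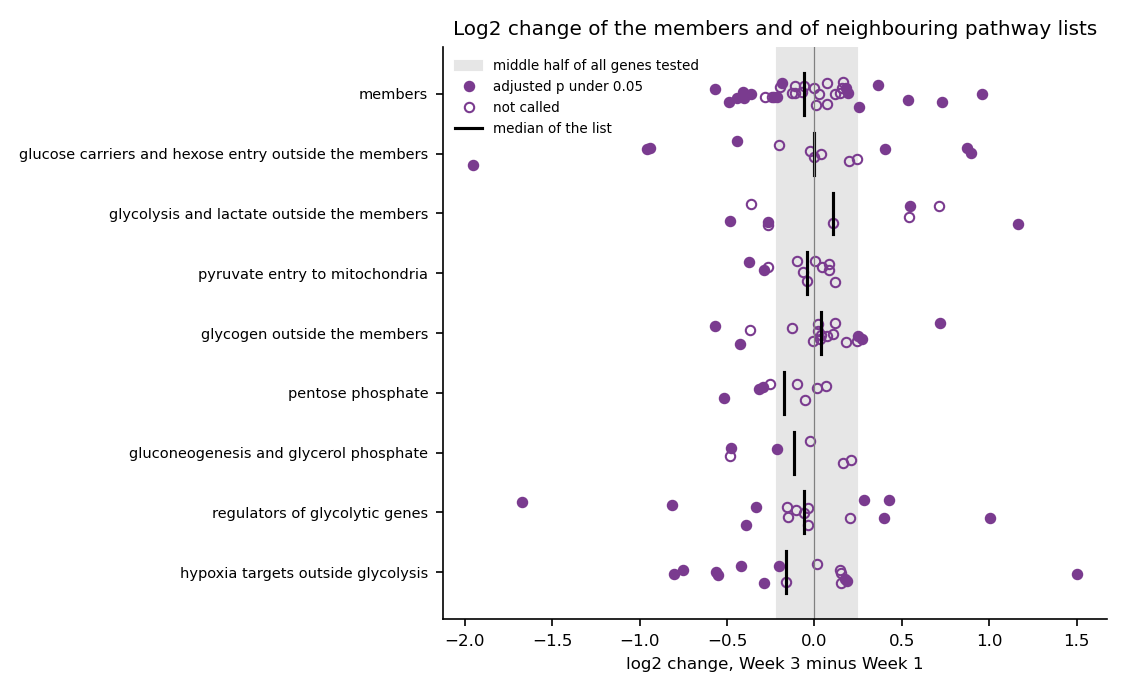
Log2 change from Week 1 to Week 3 (x axis) of every tested gene in the 33-gene set and in 8 lists of neighbouring genes (y axis), filled where the adjusted p was under 0.05, with a bar at the median of each list and a grey band over the middle of the distribution of all genes tested. The 33 genes lie between -0.57 and 0.96, inside the span of the regulators, which reach from -1.67 to 1.00.

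DNA methylation was read by ERRBS, bisulfite sequencing of MspI fragments that favours CpG-dense DNA. The libraries listed 1220867 to 2131385 cytosines with median coverages of 15 to 47 reads, and 724670 cytosines were listed in all 6. The sites used were those covered at least 10 times in all 6. The promoter, from 1000 bases before to 500 after the start, held at least 3 such sites in 23 of the 33 genes, 329 sites in all. These promoters were almost free of methylation at both times. Mean levels ran from 0% to 6.55%, the highest being Pdk3 at Week 3, whose libraries measured 2.29%, 4.83% and 1.01% at Week 1 and 4.29%, 8.24% and 7.13% at Week 3. Slc16a3 followed with 3.15% to 5.56% over the 6 libraries. In the promoter of Hk2, 11 sites measured 0%, 0.455% and 0.957% at Week 1 and 0% in every library at Week 3. The reads numbered 156 to 809 a library. All 11 sites lay within chr6:82774001-82774500. That interval holds only the part of the printed Hk2 stretch nearest the start, and neither of its marked matches. Slc2a1 measured 0.679%, 0.337% and 0% at Week 1 and 0% in all 3 libraries at Week 3 over 9 sites.

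None of 21 promoters that could be tested passed, and none reached an unadjusted p under 0.05 in edgeR's quasi-likelihood test on methylated and unmethylated reads. Gys1 and Pkm had no methylated read in any library and could not be tested. Over all 12402 promoters tested 0 passed, which is 0.0%, and 778 (6.27%) had an unadjusted p under 0.05. A quasi-binomial model for each region gave 1 call in all and limma 0. No promoter of the 33 genes was called by either of them or under any other alternative. The ranges of the weeks overlapped for all 23, where 8.95% of all promoters did not overlap and 6.39% did so with lower values at Week 3.

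Introns held more methylation and more spread. Of 22 genes with at least 3 intronic sites (323 sites), 0 passed by edgeR, as for all 9789 genes tested (0.0%), and 2 had an unadjusted p under 0.05 against 6.05% of all genes. Limma and the quasi-binomial model also called 0 of them. Over 50 sites Hk2 measured 12.4%, 12.6% and 10.0% at Week 1 and 8.75%, 10.4% and 8.59% at Week 3. The ranges overlapped, the log2 odds of methylation changed by -0.59 (SE 0.19), and the adjusted p was 0.748 (unadjusted p = 0.00506, by edgeR). Hk1, over 46 sites, measured 69.4%, 70.1% and 70.3% at Week 1 and 68.3%, 73.6% and 67.5% at Week 3. The values overlapped and the difference did not pass (log2 odds -0.11, adjusted p = 0.918 by edgeR).

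The other genes with the smallest p were Ldhb, Pgam1 and Pfkfb3. Ldhb, over 9 sites, measured 6.15%, 8.55% and 3.98% at Week 1 and 3.84%, 2.53% and 3.70% at Week 3, without overlap (unadjusted p = 0.0133, adjusted p = 0.748 by edgeR). Pgam1 measured 0%, 0% and 3.43% at Week 1 and 0%, 18.8% and 0.581% at Week 3 over 8 sites, a difference carried by Week 3 replicate 2 (adjusted p = 0.822 by edgeR). Pfkfb3 measured 33.5%, 33.7% and 34.1% at Week 1 and 26.1%, 29.8% and 28.4% at Week 3 over 28 sites, again without overlap (unadjusted p = 0.0829, adjusted p = 0.829 by edgeR). In all 3 of the 22 genes had introns whose ranges did not overlap, each lower at Week 3 in the mean over sites, where 11.5% of all genes did not overlap and 8.08% did so with lower values. The third was Pfkfb4 (58.3% and 53.4% in the mean), and with reads pooled over its sites the levels were 50.7% and 51.5%, in the other direction. Pooling moved 6 of the 22 intronic differences by more than the spread between replicates.

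Tiles of 500 bases locate such values within a gene. Of 103 tiles in 29 of these genes 101 could be tested, and none passed by edgeR, where 6 of 75633 tiles passed (0.00793%). Limma and the quasi-binomial model likewise called none of them. An unadjusted p under 0.05 was reached by 5 tiles, against 5.57% of all tiles, and 13 tiles did not overlap between the weeks, 11 of them lower at Week 3, against 9.83% and 6.24% of all tiles.

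The smallest p among them lay in intron 2 of Hk2, at chr6:82751001-82751500, 23203 bases after the start. Its 5 measured CpGs, all on the minus strand, are the capitals in the following stretch of the plus strand (RefSeq GRCm38.p6, the mm10 build of the files), which is shown because it is the only tile of these genes to be called in any alternative.
Hk2 intron, chr6:82751200-82751360: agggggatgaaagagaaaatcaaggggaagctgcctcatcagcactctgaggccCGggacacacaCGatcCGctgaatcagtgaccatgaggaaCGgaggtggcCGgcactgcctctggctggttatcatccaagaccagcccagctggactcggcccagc
The tile measured 47.5%, 46.2% and 32.9% at Week 1 and 22.8%, 31.8% and 16.1% at Week 3. All Week 3 libraries were lower, with Week 3 replicate 2 next to Week 1 replicate 3. The log2 odds changed by -1.62 (SE 0.41), with an unadjusted p of 0.000533 and an adjusted p of 0.531 by edgeR. Without Week 3 replicate 2 the adjusted p was 0.00649, and over the other alternatives it ran from 0.135 to 0.691. The ranges did not overlap at 2 of the 5 sites, at chr6 positions 82751271 and 82751295, and the coverage was 10 to 54 reads a site, so single sites were poorly resolved. Reads are not independent molecules here, since no molecular identifiers were used.

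Elsewhere in Hk2, 3 tiles at 203, 703 and 1203 bases from the start measured under 1% in every library, and 3 tiles at 39203, 42203 and 48203 bases measured 69.2% to 96.7%, none of them passing (unadjusted p of 0.379 or more). The tile at 1203 bases did not overlap between the weeks, at means of 0.869% and 0.395%. Distances are from the tile's centre to the start of the counted transcript. In Hk1, 13 tiles ranged from 0% near the start to 100% further in, and none passed. The largest difference was at 26170 bases, with means of 45.5% at Week 1 and 61.6% at Week 3 and overlapping ranges (adjusted p = 0.908 by edgeR). At 12670 bases the libraries measured 32.2%, 32.9% and 36.5% at Week 1 and 26.3%, 29.4% and 29.2% at Week 3, without overlap (adjusted p = 0.909 by edgeR). The tile 52170 bases from its start measured 85.7%, 86.1% and 93.5% at Week 1 and 81.6%, 77.5% and 69.99% at Week 3, without overlap (adjusted p = 0.903 by edgeR). The next smallest p values among the 33 genes were at exon 6 of Slc16a3 (chr11:120958001-120958500, 3 sites), with 19.7%, 40.7% and 32.4% at Week 1 and 19.2%, 0% and 11.5% at Week 3 (unadjusted p = 0.00893, adjusted p = 0.874 by edgeR), and near the distal start of Pfkfb3 (chr2:11553001-11553500, 5 sites), with 6.37%, 7.90% and 6.05% at Week 1 and 0.5%, 0.645% and 4.67% at Week 3 (unadjusted p = 0.0139, adjusted p = 0.874 by edgeR). Neither tile overlapped between the weeks, and neither passed.

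**Figure D5:**
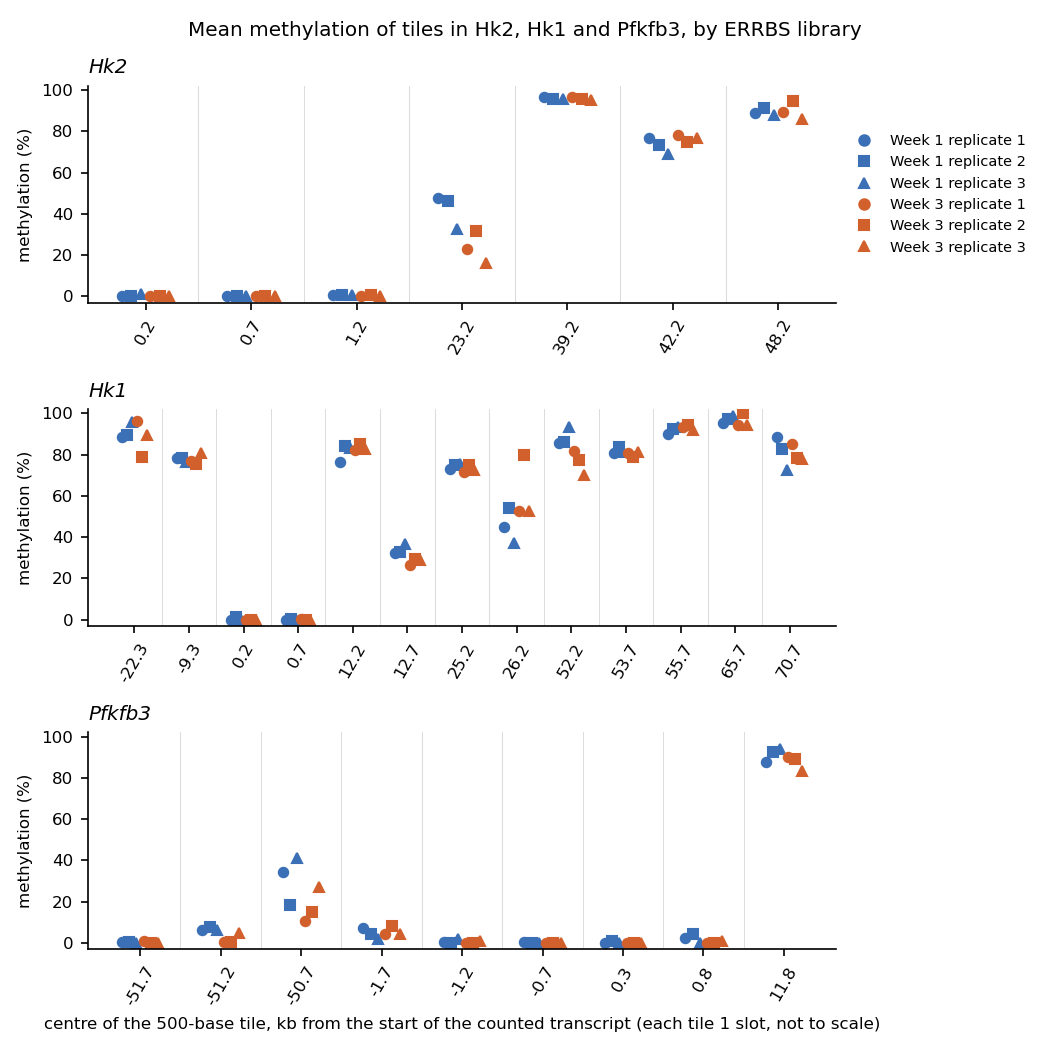
Mean methylation (y axis, %) of the 500-base tiles of Hk2, Hk1 and Pfkfb3 in each bisulfite library, 1 slot per tile labelled by the distance of its centre from the start of the counted transcript in kb (x axis, slots not to scale), blue for Week 1 and orange for Week 3 with symbols for the replicates. The Hk2 tile 23203 bases from the start is the one with 16.1% to 31.8% at Week 3 against 32.9% to 47.5% at Week 1, while the tiles at the start of each gene stay near 0%.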

How the data were processed

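RNA-seq and ERRBS libraries of chondrocyte pellets, 3 per week and assay, were grouped by their labels. Read counts per RefSeq transcript were made by the authors with STAR and featureCounts after trimming with Flexbar, per the series text and the submitters' processing notes, which also name CASAVA 2.17 and Bismark, on mm10. The labels' protocol for the poly(A) libraries describes no step that marks strand. The deposited ERRBS tables give coverage as counts and the methylated and unmethylated percent per cytosine; methylated reads were recomputed from them.

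Of 30048 accessions, 394 without a symbol (1.53% of counts) were left out. Each gene took its transcript with the most reads. Gene totals were 14361717 to 19774665. edgeR 4.0.16 (R 4.3.3) was used with TMM, filterByExpr and robust quasi-likelihood tests. Week 3 was compared with Week 1, and p-values were adjusted over all genes. CPM used TMM-scaled totals, and CPM per kb divides by transcript length. Methylation was tested in regions holding 3 or more cytosines with coverage of 10 or more in every library, by edgeR on methylated and unmethylated reads with 1 term per library. The negative binomial dispersion was set to 0 after simulated data showed that an estimated one missed known changes. Spread between libraries then enters through a quasi-dispersion per region, shrunk towards the level of all regions. Region levels are means over sites. The scripts were tested on simulated data. Intervals are not given, since reads are not independent molecules.

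Same-numbered RNA libraries deviated together (r = 0.259, 0.376 and 0.194 across genes for replicates 1, 2 and 3). This pairing was seen in the data and is not stated in the labels. The main tests did not use it. The replicate block, DESeq2 1.42.0, limma 3.58.1, other scalings, filters, coverage minimums and each library left out were run as alternatives. The run with replicates 1 and 3 alone and limma on methylation were added after seeing the data.

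Full statistics are given for the 6 genes with the highest and the 6 with the lowest log2 change among those passing, and for Slc2a1, Hk1, Hk2, Ldha, Ldhb, Slc16a1, Slc16a3, Pdk1 and Pdk4. For other lists up to 3 genes with the smallest adjusted p are named. For introns and tiles Hk1, Hk2 and the 3 smallest p are given, and promoters by range. The genes and lists were chosen with earlier results of these data known. Of the marker lists not described in the results, the sums were 11.0 to 12.0 CPM for erythroid and 0.981 to 1.45 CPM for endothelial cells. Osteoclast markers were 107 to 141 CPM at Week 1 and 192 to 215 CPM at Week 3 (1 of 2 tested higher), and smooth muscle markers 24.7 to 39.4 and 109 to 156 CPM (2 of 3 tested higher). The osteoclast sum was mostly Ctsk (means of 116 and 203 CPM), while Acp5 did not pass and Calcr had no read. Of the smooth muscle markers Acta2 and Tagln were higher, Myh11 (log2 change -0.44) did not pass and Rgs5 was too low to test. The part of these cells in the results was not tested.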

Additional observations from a re-analysis of the deposited data

How the results depend on the processing

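Of the 16 calls among the 33 genes, 3 of 7 higher and 6 of 9 lower held under every alternative, and 3 of 17 genes without a call stayed without one in the same direction. Leaving out 1 library gave 10 to 18 calls, 4 to 9 of them higher and 6 to 9 lower. Over all genes it gave 3980 to 5762 calls, 2179 to 3024 higher and 1801 to 2738 lower. Library totals gave 3 higher and 14 lower genes of the 33, and 1736 higher and 4896 lower of all. The replicate block gave 8 higher and 11 lower of the 33, and 3261 and 3045 of all, and among these genes it changed no call other than those of Pfkfb2, Gapdh and Pdk1. DESeq2 gave 6 higher and 7 lower, and 2478 and 2030 of all.

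No value that changed sign passed the threshold. With library totals the log2 change was -0.078 for Pfkl, -0.034 for Pfkm, -0.12 for Eno3, -0.14 for Pkm, -0.0031 for Ldha and -0.081 for Ldhb. With replicates 1 and 3 alone it was 0.00036 for Slc2a3, -0.072 for Ldhb and 0.061 for Slc16a3. For Slc16a3 it was 0.00031 by DESeq2 and 0.00042 with DESeq2 size factors. Leaving out 1 library gave -0.066 to 0.11 for Eno3, -0.025 to 0.069 for Pkm, -0.011 to 0.16 for Ldhb and -0.049 to 0.035 for Slc16a3. Coverage of 20 or more turned the Hk1 intron to 0.20 in log2 odds.

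Calls for methylation were few and unstable over the genome. Promoters went from 0 to 32 with coverage of at least 20, 203 with the replicate block, 125 in a window of 500 before to 250 after the start, 1 by the quasi-binomial model and 3 to 222 without 1 library. Introns went from 0 to 2 with the block and 0 to 11 without 1 library. Tiles went from 6 to 47 with coverage of at least 20, 419 with the block, 3 by the quasi-binomial model, 0 by limma and 10 to 200 without 1 library. The cause was not tested. No member promoter or intron was called in any of these, and 1 tile, in Hk2, was called without Week 3 replicate 2. Same-numbered ERRBS libraries did not deviate together (r = 0.016, 0.032 and 0.009), so the block there tests only a shared number. Week 1 replicate 3 had a median coverage of 17 at the shared cytosines against 58 and 66 in the other Week 1 libraries, which limits its sites most.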
